A study of Mus musculus with 8 samples.

Results

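The 86 genes described here encode the cytosolic ribosomal proteins of the mouse and their close relatives, measured by RNA sequencing in cultured endothelial cells from the small vessels of the mouse brain. They were taken by symbol from 54532 genes: protein-coding genes named Rpl or Rps with a number, with Rplp0, Rplp1, Rplp2 and Rpsa, leaving out pseudogenes and the Rps6k kinases. The set holds 46 large subunit genes, 31 small subunit genes, 8 paralogs or retrogenes of such genes, and Rps19bp1, which carries the prefix although its product is a nuclear regulator that binds Rps19 and is not part of the ribosome. Fau, which encodes a small subunit protein fused to a ubiquitin-like domain, lies outside the symbol rule.

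The libraries came from primary cells of Cavβ3-deficient mice (labelled Cavb3 KO, 4 libraries) and of wild-type mice (WT, 4 libraries). Cavβ3, encoded by Cacnb3, is an auxiliary subunit of voltage-gated calcium channels, and the study asked what it does for endothelial function. The medium of both groups was DMEM supplemented with fetal calf serum (20%), fibroblast growth factor (10 ng/mL) and heparin (100 ng/mL). The labels used here give no age, sex, strain background or form of the Cavβ3 deletion. Cultured primary cells are also removed from blood flow and from their neighbouring brain cells. The values are FPKM, which scale a gene's fragments by its exon length and by the size of the library, and the depth implied by their steps was 23491645 to 33813070 reads or fragments per library.

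Cacnb3 did not separate the labels. It stood at 1.70, 2.09, 2.47 and 1.77 FPKM in Cavb3 KO replicates 1 to 4, and at 3.38, 3.56, 1.12 and 0.980 FPKM in WT replicates 1 to 4. The groups overlapped, with a log2 difference of -0.02 (limma adjusted p = 0.996), so the groups are named below by their labels. The libraries also fell into replicates 3 and 4 and replicates 1 and 2, sets that no label names. Ddx3y, a Y-linked RNA helicase gene, was listed at 0 in the 4 libraries of replicates 3 and 4, where 3 reads would give 0.0203 to 0.0246 FPKM, and at 6.98 to 9.48 FPKM in the 4 libraries of replicates 1 and 2. Of 16 endothelial markers 15 passed the filter on low values described below. Cdh5 (497 to 679 FPKM) and Pecam1 (277 to 391 FPKM) were high in every library, Cldn5 (10.4 to 103 FPKM) and Egfl7 (13.5 to 179 FPKM) varied, Vwf was low (4.09 to 6.33 FPKM) and Slco1a4 was at most 0.168 FPKM. All 7 neuron markers had an FPKM of at most 1.26, and all 7 microglia and macrophage markers at most 0.51. Some markers of other cell types were higher. The astrocyte markers Slc1a3 and Gja1 had 14.7 to 18.8 and 0.942 to 7.998 FPKM. The choroid plexus and ependymal markers Aqp1 and Foxj1 had 12.5 to 127 and 0.0852 to 5.85 FPKM. The fibroblast marker Col1a1 had 1.45 to 4.85 FPKM. The other markers of these 3 kinds did not exceed 2.15 FPKM. Of 10 pericyte and smooth muscle markers, Rgs5, Kcnj8 and Abcc9 did not exceed 0.130 FPKM, while Acta2 reached 21.9, Pdgfrb 5.24, Tagln 3.83 and Cnn1 2.74 FPKM.

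Cytosolic ribosomes are built from rRNA and one copy of nearly every ribosomal protein, so cells make these proteins in matched amounts. Their mRNAs are abundant and short, and most begin with a terminal oligopyrimidine (TOP) tract, a C followed by a run of C and T, through which mTORC1 signalling controls their translation. Free ribosomal proteins outside the ribosome can act as signals: Rpl5 and Rpl11 bind Mdm2, the main inhibitor of p53.

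Transcript starts were available in RefSeq for 66 of the 86 genes (GRCm38.p6). A pyrimidine run, here a C followed by at least 4 bases of C or T beginning within 5 bases of the annotated start on the gene's strand, was present in 30 of them (45.5%), against 24.0% of 8503 tested genes with an entry. It began exactly at the start in 14 of the 66 (21.2%), against 3.02% of the tested genes. The motif CCGGAAG, the core bound by ETS-family factors such as GABP, was found on either strand (CCGGAAG or CTTCCGG) within the window from 250 bases before to 50 bases after the start in 26 of the 66 (39.4%), against 21.6% of the tested genes. These matches describe the letters in the window only, and annotated starts can lie some bases away from the start used in these cells. The 30 bases around the start (15 before it and 15 from it onward, 5′ to 3′) are shown for Rpl38 and Rps6, which carry the run, and for Rps10 and Rps12, which differed most between the replicate sets among subunit genes that were higher in replicates 3 and 4. They lie at chr11:114668565-114668594 on the plus strand for Rpl38, chr4:86857353-86857382 on the minus strand for Rps6, chr17:27635230-27635259 on the minus strand for Rps10 and chr10:23787195-23787224 on the minus strand for Rps12. Capitals mark the pyrimidine run, and the Rps12 window holds none under this definition.
Rpl38: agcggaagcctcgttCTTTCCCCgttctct
Rps6: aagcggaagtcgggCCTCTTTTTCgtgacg
Rps10: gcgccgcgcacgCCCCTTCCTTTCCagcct
Rps12: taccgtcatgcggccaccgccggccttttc

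Ribosomal protein mRNAs were among the most abundant in the cells. The median level of the 86 genes over the 8 libraries was 89.9 FPKM, against 7.27 FPKM for the 11864 genes that passed the filter of at least 1 FPKM in at least 4 libraries. Of the 86 genes, 69 lay above 41.8 FPKM, the 90th percentile of the tested genes, and 37 reached 100 FPKM. Together they summed to 9419, 11178, 9872 and 8726 FPKM in Cavb3 KO replicates 1 to 4, and to 9768, 9833, 9291 and 9005 FPKM in WT replicates 1 to 4. Replicate 2 labelled Cavb3 KO was the highest of the 8 and replicate 4 labelled Cavb3 KO the lowest, and the WT sums lay between them. The summed FPKM of large subunit genes was 1.58 ± 0.0439 times that of small subunit genes in Cavb3 KO libraries and 1.60 ± 0.0582 times in WT libraries (SD, n = 4 each).

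The P stalk, the flexible arm of the large subunit that recruits elongation factors, supplied both leading genes. Rplp1, one of its acidic proteins, had 739, 945, 810.2 and 688 FPKM in Cavb3 KO replicates 1 to 4 and 734, 785, 674 and 670.2 FPKM in WT replicates 1 to 4. Rplp0, which anchors the stalk, had 469, 578, 514 and 416 FPKM in Cavb3 KO libraries and 479, 485, 444 and 439.9 FPKM in WT libraries. The third stalk gene, Rplp2, was listed well below them at 98.2 ± 8.24 FPKM (SD over the 8 libraries). In all 3 genes the highest library was replicate 2 labelled Cavb3 KO, and the groups overlapped.

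Rpl41, which encodes the smallest ribosomal protein, followed at 379 ± 41.6 FPKM, then Rps3a1, a small subunit gene, at 268 ± 29.4 FPKM and Rpl19 of the large subunit at 259 ± 15 FPKM (SD over 8 libraries). These 2 neighbours in the order differed by less than the spread over the libraries. Rps6, the small subunit protein phosphorylated downstream of mTORC1, stood at 206 ± 13.7 FPKM. Rpl5 and Rpl11, the Mdm2-binding proteins, were close to each other at 62.9 ± 8.05 and 59.2 ± 6.53 FPKM.

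The annotation limits how the levels compare between genes. The exons of all transcripts of a gene together were a median of 2.15 times as long as its principal transcript, and up to 7.18 times for Rpl35a, so FPKM over all exons is lower than FPKM over the principal transcript for such genes. Per kilobase of principal transcript, Rpl41 ranked first at 813 and Rplp1 second at 756 on the same scale. Rpl24 had only 0.285 to 1.24 FPKM (8 to 30 reads), and 47.0% of its exon bases lie within the same-strand gene Gm28037. Rps10, a small subunit protein at the mRNA entry site, averaged 2.43 ± 1.23 FPKM, with 20.6% of its exon bases inside RPS10-NUDT3. Both overlapping genes were listed at 0 in every library. Values of members with such overlap, which also include Rpl13a (35.4%) and Rpl36al (24.5%), are uncertain. The same holds for 56 members with 294 named pseudogenes, whose reads can be divided between near-identical copies, and for 6 members with over 20% of their exon bases opposite another gene, since the use of strand is not given in the sources used here.

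**Figure D1:**
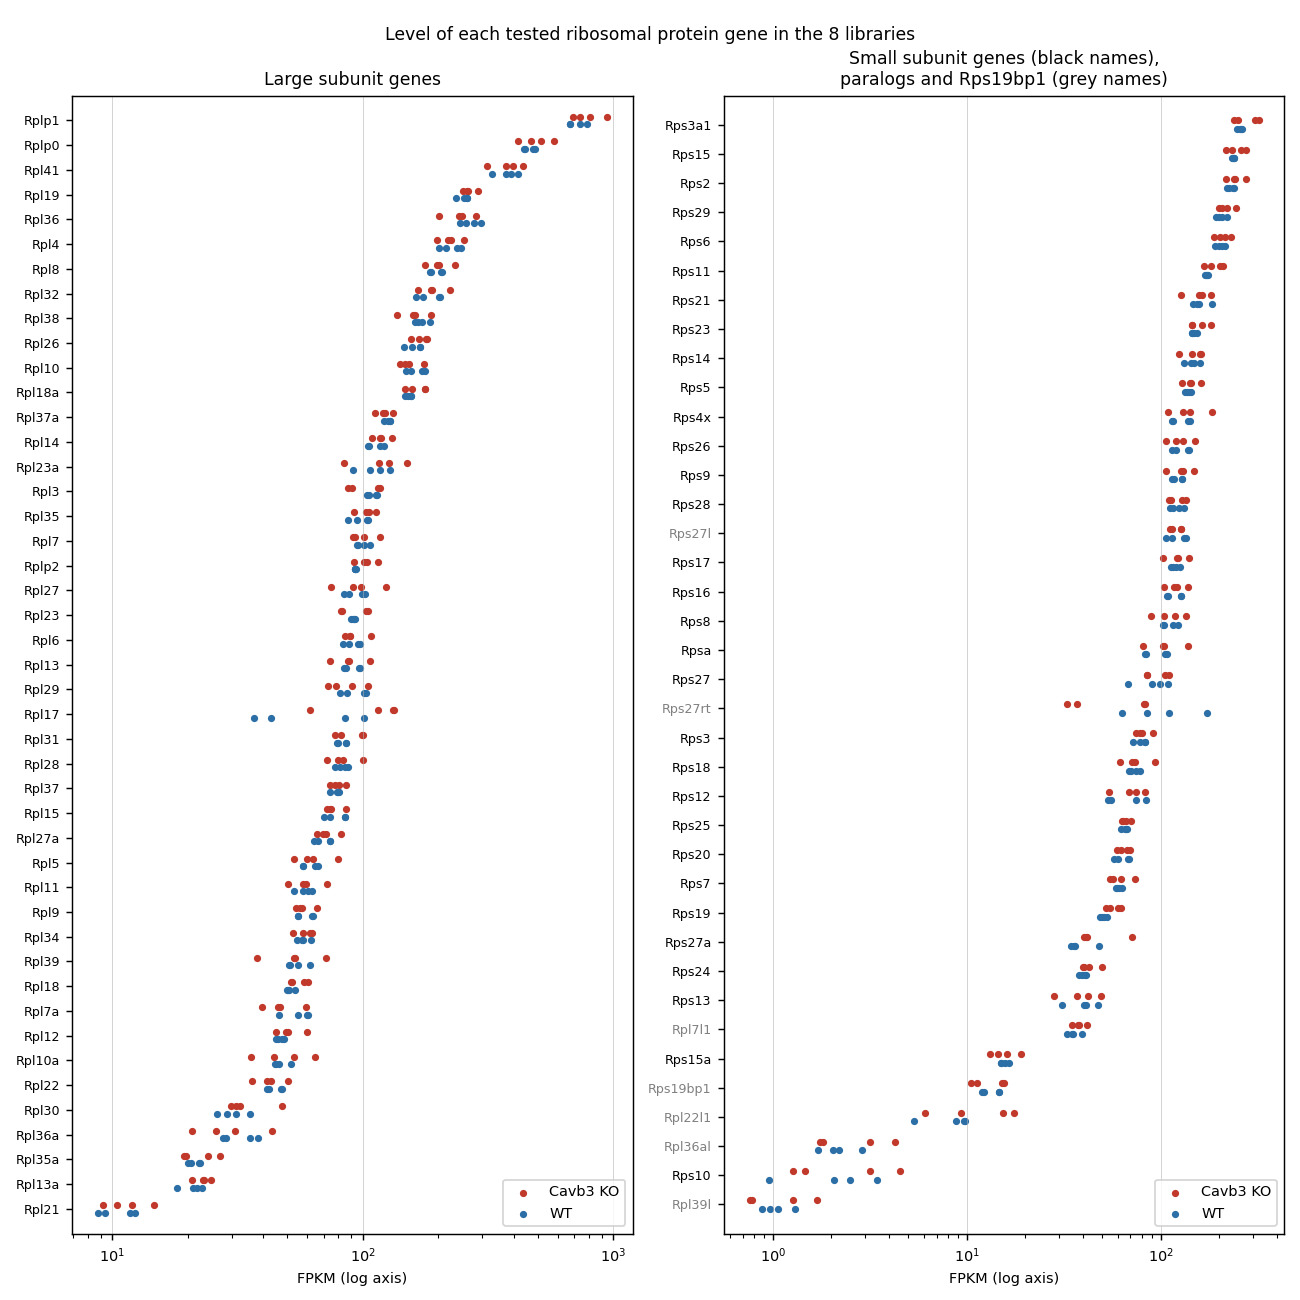
FPKM of the 83 tested genes (log axis) in each of the 4 Cavb3 KO libraries (red, upper row of each gene) and 4 WT libraries (blue, lower row), ordered by mean level over the 8 libraries. Most genes lie within a narrow band across libraries, whereas Rpl17, Rps27rt, Rpl22l1, Rps10 and Rpl36al are spread out.

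Relatives of the core genes were mostly low. Rpl10l, a testis paralog of Rpl10, was listed at 0 in all libraries, where 3 reads would have given 0.0867 to 0.125 FPKM (counting error only). Rpl3l, the heart and skeletal muscle paralog of Rpl3, did not exceed 0.363 FPKM. Rpl39l stood at 1.09 ± 0.320 FPKM against 54.3 ± 9.54 FPKM for Rpl39 (SD over 8 libraries). Rpl7l1, a nucleolar factor related to Rpl7, was higher at 36.9 ± 2.86 FPKM. Rps27l, a known p53 target, was listed at 121 ± 10.6 FPKM, against 94.2 ± 14.5 FPKM for its parent gene Rps27. Per kilobase of principal transcript the order was reversed, at 198 for Rps27l and 285 for Rps27. The retrogene Rps27rt, at 83.4 ± 44.4 FPKM, cannot be separated from Rps27 and is described with it below. Rpl10l, Rpl3l and Rpl24 did not pass the filter, which leaves 83 genes for the tests below.

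Most of the 83 genes were steady across libraries. The ratio of the highest to the lowest library was under 1.5 for 61 of them, against 4951 of the 11864 tested genes. The median ratio of the 83 was 1.36, against 1.60 over the tested genes. Most of the tested genes have lower levels, and no genes of matched level were set beside the members. Rps25 was the steadiest, with 63.5, 70.0, 63.9 and 66.6 FPKM in Cavb3 KO libraries and 66.7, 67.5, 65.7 and 62.5 FPKM in WT libraries. The largest ratios were those of Rps27rt (5.22), Rps10 (4.75), Rpl17 (3.63), Rpl22l1 (3.27) and Rpl36al (2.49), and 3 of these 5 are paralogs or retrogenes.

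The genes shifted together from library to library. Each gene's log2(FPKM + 1) was set against its own mean over the 8 libraries. The median of these deviations over the 83 genes was -0.03, 0.21, 0.03 and -0.13 in Cavb3 KO replicates 1 to 4, and 0.04, 0.04, -0.05 and -0.09 in WT replicates 1 to 4. Replicate 2 labelled Cavb3 KO stood highest, with 78 of the 83 genes above their own mean, all 45 large subunit genes and 29 of 31 small subunit genes among them. Replicate 4 labelled Cavb3 KO stood lowest, with 12 genes above their mean, followed by WT replicate 4 with 14.

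The shift of replicate 2 labelled Cavb3 KO did not appear in the medians of other short or other abundant genes. Its median deviation was 0.00 over all tested genes, -0.03 over 1879 other genes with an exon length of up to 1500 bases and -0.03 over 877 other genes with a mean of at least 50 FPKM. The 10 tested translation elongation and termination factors had a median deviation of 0.18 there, the 38 initiation factors 0.03, the 76 mitochondrial ribosomal proteins 0.06 and the 6 paralogs 0.00. This library was also the deepest of the 8, and the part of depth in the shift was not tested. In bulk RNA, fewer cells of a type and less RNA per cell cannot be told apart.

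**Figure D2:**
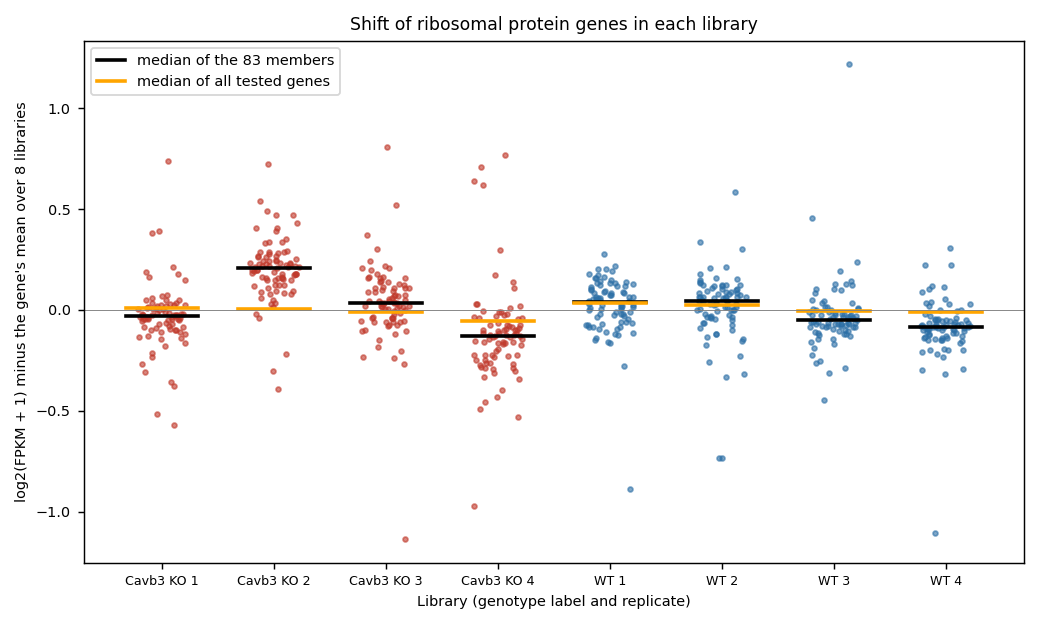
Deviation of log2(FPKM + 1) from each gene's mean over the 8 libraries, for the 83 tested genes (points; 4 Cavb3 KO libraries red, 4 WT libraries blue), with their median (black line) and the median of all tested genes (orange line). Replicate 2 labelled Cavb3 KO has the highest member median at 0.21 and replicate 4 labelled Cavb3 KO the lowest at -0.13, while the all-gene medians stay between -0.05 and 0.03.

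The comparison the study names, Cavb3 KO against WT, showed no ribosomal protein gene that passed the test. In limma on log2(FPKM + 1) with Benjamini-Hochberg adjustment over 11864 genes, 0 of the 83 passed at 0.05 (background 0% of all tested genes), and 0 passed with limma-voom on recovered reads. At an unadjusted p under 0.05, 1 of the 83 was higher and 0 were lower, against 5.45% of all tested genes in either direction. The groups did not overlap for 0 members in either direction (background 4.14%, 1.64% higher and 2.5% lower).

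The estimates were small. Their median was 0.04 on the log2 scale, against -0.02 over all tested genes, and 61 of the 83 were positive (73.5%, against 44.2% of all). Within 0.1 of 0 lay 57 of them (68.7%, against 49.3% of all), and for 71 of the 83 the 95% confidence interval stayed within 0.5 of 0. The median depended on single libraries and turned negative only without replicate 2 labelled Cavb3 KO, at -0.02 with 34 of 83 positive. Without replicate 4 labelled Cavb3 KO it was 0.10, with 72 of 83 positive, and without any other single library 0.02 to 0.06. It also moved with the scaling, to 0.07 with 71 positive under quantile normalization, 0.08 with 72 positive when rescaled to the FPKM of all other genes and 0.10 with 74 positive in limma-voom, where the medians of all genes were 0.00, 0.02 and 0.03.

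Among the genes named for their known roles, Rps19, whose loss causes Diamond-Blackfan anaemia in humans, was the gene with an unadjusted p under 0.05. It had 52.6, 60.3, 62.6 and 55.1 FPKM in Cavb3 KO replicates 1 to 4 and 49.8, 48.7, 53 and 51.4 FPKM in WT replicates 1 to 4. The groups overlapped only in that Cavb3 KO replicate 1 lay below WT replicate 3, with a log2 difference of 0.18 (limma adjusted p = 0.875). Rpl5 differed by 0.04, Rpl11 by 0.02, Rps6 by 0.03, Rpsa, the laminin-binding protein, by 0.15 and Rpl13a, which takes part in silencing of inflammatory mRNAs in human myeloid cells, by 0.13, all on the log2 scale and none past the test.

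The 4 largest positive and 4 largest negative differences included the genes whose libraries varied most. The genes named here were picked by the size of their difference, so agreement between numbered pairs follows in part from that choice. The share of all genes with such agreement was not counted, and no label states that libraries with the same number belong together. Rpl17, a protein near the exit tunnel of the large subunit, had 61.5, 133, 116 and 132 FPKM in Cavb3 KO replicates 1 to 4 and 42.9, 102, 85.1 and 36.7 FPKM in WT replicates 1 to 4. Replicate 1 was low in both groups and WT replicate 4 was the lowest of all, and in each of the 4 numbered pairs the Cavb3 KO library was the higher one. The log2 difference was 0.79 (95% interval -0.08 to 1.66, limma adjusted p = 0.890), with 0.45 within replicates 1 and 2 and 1.13 within replicates 3 and 4. Rps27a, which encodes ubiquitin fused to a small subunit protein, had 71.7, 42.0, 41.4 and 40.3 FPKM in Cavb3 KO libraries and 48.1, 36.2, 35.6 and 34.5 FPKM in WT libraries. In each numbered pair the Cavb3 KO library was the higher one, replicate 1 stood above the others in both groups, and the log2 difference was 0.30 (limma adjusted p = 0.926). Rpl22l1 and Rpl30, the other two, had differences of 0.41 and 0.19.

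On the negative side, Rps27rt had a log2 difference of -0.89 (95% interval -1.81 to 0.03, limma adjusted p = 0.890) and is taken up with Rps27 below. In each of the 4 numbered pairs its Cavb3 KO library was the lower one. With the replicate number as a block, the limma adjusted p was 0.235 for Rpl17, 0.170 for Rps27a and 0.325 for Rps27rt. Rpl7a, a large subunit protein that contacts the rRNA, had 39.8, 59.6, 46.0 and 46.6 FPKM in Cavb3 KO libraries and 46.3, 55.2, 60.5 and 59.9 FPKM in WT libraries, a difference of -0.21 on the log2 scale. Replicate 2 labelled Cavb3 KO lay among the WT libraries. Rpl36 differed by -0.15 and Rpl36a by -0.13, and neither passed the test.

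The genotype comparison was repeated with the replicate set as a term and within each set. With the term, 0 of the 83 passed (background 0.632%, 0.261% higher and 0.371% lower). At an unadjusted p under 0.05, 1 member was higher and 1 lower with the term, whereas limma-voom with the term had 15 higher and 0 lower (smallest limma adjusted p = 0.0806). At the same cutoff, in either direction, all tested genes gave 2269 of 11864 with the term and 2316 of 11861 in limma-voom. Taken in either direction, the 15 members were thus a share near that of all tested genes. All 15 were higher, and the share of all tested genes that were higher at this cutoff was not counted. Within replicates 1 and 2, and within replicates 3 and 4, 0 members passed in each (background 0.0506% in each). The median difference was 0.06 within replicates 1 and 2, with 63 of 83 positive, and 0.02 within replicates 3 and 4, with 48 of 83 positive. The test of whether the genotype difference differed between the sets called 0 members (background 0.00843%).

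**Figure D3:**
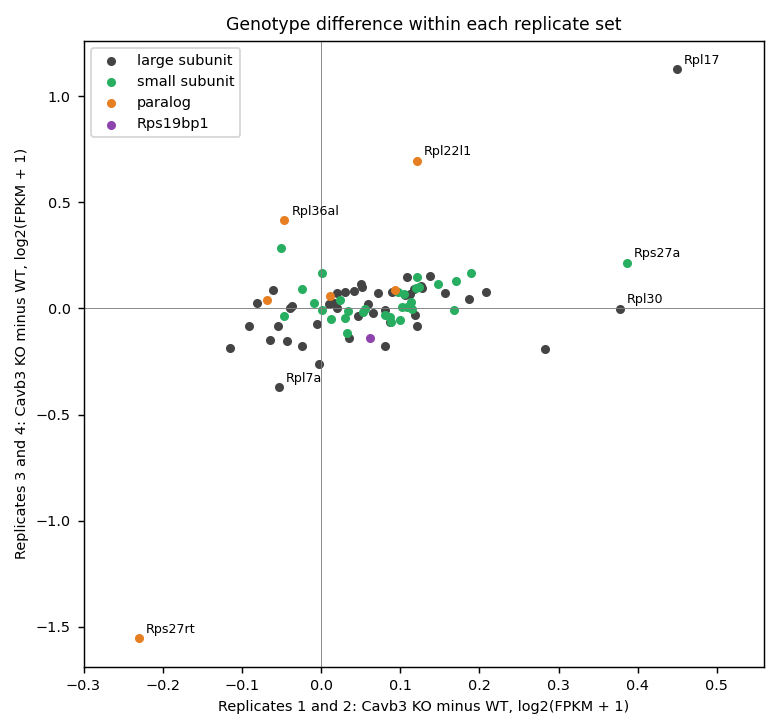
Cavb3 KO minus WT difference in log2(FPKM + 1) of the 83 tested genes within replicates 1 and 2 (horizontal axis) and within replicates 3 and 4 (vertical axis), with genes beyond 0.3 on either axis named. Most genes lie close to 0 on both axes; Rpl17 (0.45 and 1.13) and Rps27rt (-0.23 and -1.55) lie farthest out.

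Replicates 3 and 4 differed from replicates 1 and 2 in part of the set. The split was chosen with earlier results of these data known, so its p-values are no independent test of it. With the genotype label in the fit, 21 of the 83 genes passed (25.3%): 6 rose and 15 fell (background 45.7% in either direction, 19.8% risen and 25.8% fallen). The share of members called was thus below the background. The median log2 difference of the 83 was -0.15, against -0.04 over all tested genes, with 17 positive and 66 negative. The sets did not overlap for 5 members that were higher and 15 that were lower (background 39.7%). Of the large subunit genes 1 rose and 11 fell, and of the small subunit genes 3 rose and 2 fell. No label separates culture, sex or processing between the sets, so these cannot be told apart.

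The split of the calls depended on the scaling and on single libraries. With each library centred on the median of all tested genes, 7 members rose and 8 fell, and with each library rescaled to the FPKM of all other genes, 4 rose and 28 fell. The median of the members stayed negative under every scaling tried. In place of 15 fallen members there were 8 without Cavb3 KO replicate 2, 8 without Cavb3 KO replicate 4, 8 without WT replicate 1, 6 without WT replicate 2, 9 without WT replicate 3 and 7 without WT replicate 4. The number of fallen members was larger without Cavb3 KO replicate 1, at 20, and without Cavb3 KO replicate 3, at 21. In place of 6 risen members there were 9 without Cavb3 KO replicate 2, 4 without any one of Cavb3 KO replicate 1, Cavb3 KO replicate 3, WT replicate 3 and WT replicate 4, and 3 without WT replicate 2.

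Rps12, a small subunit protein, rose in replicates 3 and 4. It had 74.7 and 83.3 FPKM in Cavb3 KO replicates 3 and 4 and 74.7 and 83.9 FPKM in WT replicates 3 and 4, against 54.5 and 69.1 FPKM in Cavb3 KO replicates 1 and 2 and 55.6 and 53.6 FPKM in WT replicates 1 and 2. The sets did not overlap, with a log2 difference of 0.44 ± 0.09 (SE, limma adjusted p = 0.00575). Rps12 passed in all 19 alternatives tried, and its start, shown above, holds no pyrimidine run by this definition. Rps12 has 24 named pseudogenes, and no alternative changed how reads were divided between copies.

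Rps10 had the largest rise, at a low level. It had 3.19, 4.53, 3.45 and 2.52 FPKM in the Cavb3 KO and then the WT libraries of replicates 3 and 4, against 1.27, 1.47, 2.08 and 0.954 FPKM in those of replicates 1 and 2. The log2 difference was 0.86 ± 0.17 (SE, limma adjusted p = 0.00600), on 55 to 246 reads per library. Rps16, a small subunit gene, rose by 0.20 (limma adjusted p = 0.0476) and Rpl26, a large subunit gene whose human protein also binds p53 mRNA, by 0.15 (limma adjusted p = 0.0362) on the log2 scale, and these calls were lost in most alternatives, Rps16 passing in 8 and Rpl26 in 9 of 19.

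Of the 15 members that fell, 11 were large subunit genes, which are also 45 of the 83 tested, and no difference between the subunits was tested. Rpl29, a protein also known to bind heparin, had 78.3 and 72.7 FPKM in Cavb3 KO replicates 3 and 4 and 86.4 and 81.3 FPKM in WT replicates 3 and 4, against 90.7 and 105 FPKM in Cavb3 KO replicates 1 and 2 and 101 and 103 FPKM in WT replicates 1 and 2. The sets did not overlap, with a log2 difference of -0.32 ± 0.06 (SE, limma adjusted p = 0.00496). Rpsa had 103 and 81.4 FPKM in Cavb3 KO replicates 3 and 4 and 82.7 and 84.6 FPKM in WT replicates 3 and 4, against 104 and 139 FPKM in Cavb3 KO replicates 1 and 2 and 105 and 109 FPKM in WT replicates 1 and 2. Its sets did not overlap although Cavb3 KO replicate 3 came close to Cavb3 KO replicate 1, and the log2 difference was -0.37 (limma adjusted p = 0.0201). Rpl21 differed by -0.39 (limma adjusted p = 0.00492) and Rps26, which lies at the mRNA exit site, by -0.28 (limma adjusted p = 0.00955) on the log2 scale. Rps19bp1, the member that is no ribosomal protein, fell by 0.36 (limma adjusted p = 0.00310). Rpl21, Rpl29, Rps26 and Rps19bp1 passed in all 19 alternatives and Rpsa in 16, but Rpl21 has 15 named pseudogenes, to which the same limit applies as to Rps12. Of the Mdm2-binding pair, Rpl5 fell by 0.25 (limma adjusted p = 0.0392) and Rpl11 differed by -0.19 without passing (limma adjusted p = 0.0958). Apart from Rpl36a and Rps27l, described below, the other 7 fallen members were all large subunit genes, with log2 differences of -0.24 to -0.17. Many of these calls were lost in alternatives: Rpl5 passed in 9 of 19, and the other 7 passed in 8 (Rpl13) to 13 (Rpl32) of 19.

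All 4 X-linked members had negative differences between the sets, a group picked after its values were seen. Of all 83 members 66 had negative differences, and 45.7% of all tested genes passed. Rpl36a (-0.51) and Rpl10 (-0.19, in 10 of 19 alternatives) passed, and Rpl39 (-0.31, limma adjusted p = 0.0907) and Rps4x (-0.30, limma adjusted p = 0.0683) did not.

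**Figure D4:**
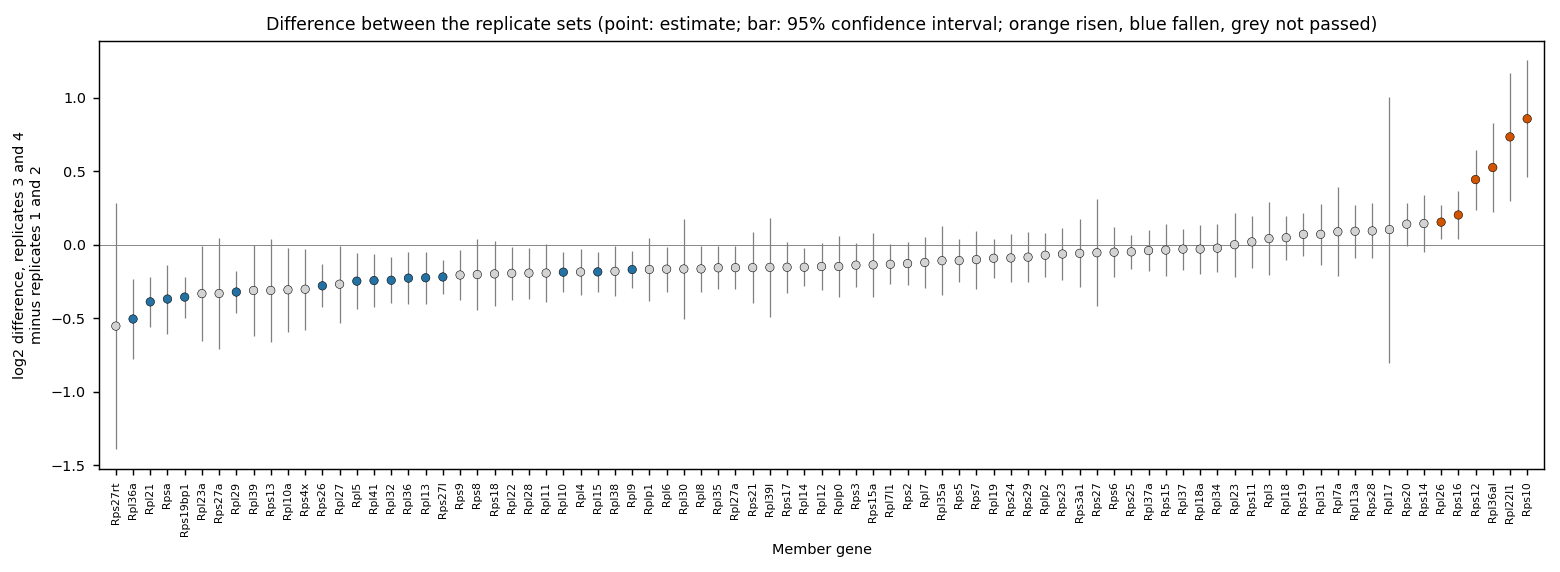
Difference in log2(FPKM + 1) between replicates 3 and 4 and replicates 1 and 2 for the 83 tested genes, in order of size (points: estimates; bars: 95% confidence intervals; orange: the 6 that rose; blue: the 15 that fell; grey: not past the test). Of the 83 points, 66 lie below 0, and Rps10 (0.86), Rpl22l1 (0.73), Rpl36al (0.52) and Rps12 (0.44) stand highest.

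Of the paralogs, Rpl22l1 and Rpl36al had differences between the sets of opposite sign to those of their parent genes, whereas Rpl7l1 (-0.13), Rpl39l (-0.15) and Rps27l (-0.22) had the same sign as Rpl7 (-0.12), Rpl39 (-0.31) and Rps27 (-0.05). Rpl22l1 is the paralog of Rpl22, and in mice Rpl22 protein is known to hold Rpl22l1 mRNA low. Rpl22l1 had 17.6 and 15.3 FPKM in Cavb3 KO replicates 3 and 4 and 9.68 and 9.82 FPKM in WT replicates 3 and 4, against 6.14 and 9.32 FPKM in Cavb3 KO replicates 1 and 2 and 8.77 and 5.38 FPKM in WT replicates 1 and 2. The sets did not overlap, with the highest values in Cavb3 KO replicates 3 and 4, and the log2 difference between sets was 0.73 ± 0.19 (SE, limma adjusted p = 0.0160). Rpl22 differed by -0.19 without passing (limma adjusted p = 0.0707). The ratio of Rpl22l1 to Rpl22 was 0.148, 0.185, 0.408 and 0.424 in Cavb3 KO replicates 1 to 4 and 0.183, 0.114, 0.233 and 0.233 in WT replicates 1 to 4. The genotype difference of Rpl22l1 was 0.12 within replicates 1 and 2 and 0.70 within replicates 3 and 4, and their difference did not pass (limma adjusted p = 0.879).

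Rpl36al and its parent Rpl36a, whose coding sequences share 87.7% of aligned bases, moved in opposite directions. Rpl36al had 3.18, 4.28, 2.88 and 2.19 FPKM in the Cavb3 KO and then the WT libraries of replicates 3 and 4, against 1.82, 1.75, 2.04 and 1.72 FPKM in those of replicates 1 and 2. Rpl36a had 25.9, 20.9, 27.6 and 28.5 FPKM in the same libraries of replicates 3 and 4, against 30.9, 43.5, 35.5 and 38.1 FPKM in those of replicates 1 and 2. Neither gene's sets overlapped, and Rpl36al rose by 0.52 (limma adjusted p = 0.0138) while Rpl36a fell by 0.51 (limma adjusted p = 0.0108) on the log2 scale. Rpl36al was counted on 58 to 136 reads per library.

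Rps27 has a retrogene, Rps27rt, whose coding sequence of 252 bases is identical to it, so reads from that stretch cannot be assigned to one of them. Rps27 lies on chromosome 3 (90212522 to 90213651, minus strand) and Rps27rt on chromosome 9 (114982366 to 114982739, minus strand) in GRCm38. Their starts, at chr3:90213634-90213663 and chr9:114982725-114982754 on the minus strand, are shown with that of Rps27l at chr9:66946071-66946100 on the plus strand, because the windows show where the retrogene's letters meet those of its parent. Capitals mark the pyrimidine run, and the longest stretch that the windows of Rps27 and Rps27rt share is 14 bases.
Rps27: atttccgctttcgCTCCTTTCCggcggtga
Rps27rt: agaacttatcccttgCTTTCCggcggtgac
Rps27l: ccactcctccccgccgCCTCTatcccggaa

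In the WT libraries the 2 genes varied against each other while their sum was steady, whereas in the Cavb3 KO libraries the sum varied too. Rps27rt had 81.7, 83.5, 33.1 and 37.1 FPKM in Cavb3 KO replicates 1 to 4 and 84.9, 111, 173 and 63.3 FPKM in WT replicates 1 to 4. Rps27 had 85.6, 105, 110.4 and 85.1 FPKM in Cavb3 KO libraries and 99.2, 90.9, 68.1 and 109 FPKM in WT libraries. WT replicate 3 held the highest Rps27rt and the lowest Rps27 value, and Cavb3 KO replicate 3 held the lowest Rps27rt and the highest Rps27 value. Rps27rt took 25.5%, 22.1%, 9.69% and 13.5% of the recovered reads of both genes in Cavb3 KO replicates 1 to 4 and 23.5%, 30.5%, 47.6% and 17.2% in WT replicates 1 to 4. The reads of both genes together came to 0.0120%, 0.0141%, 0.0128% and 0.0103% of the implied depth in Cavb3 KO replicates 1 to 4 and to 0.0135% to 0.0137% in the 4 WT libraries. The values of each gene alone are uncertain because reads from the identical stretch cannot be assigned, and so is the genotype difference of Rps27rt.

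Rps27l shares 76.2% of aligned coding bases with Rps27. It had 112, 115, 106 and 115 FPKM in the Cavb3 KO and then the WT libraries of replicates 3 and 4, against 127, 128, 135 and 132 FPKM in those of replicates 1 and 2. The sets did not overlap, and it fell by 0.22 on the log2 scale (limma adjusted p = 0.0103), a call kept in all 19 alternatives. Of 21 other p53 targets of the ribosomal stress response 6 rose and 3 fell, a share of calls near the 45.7% of all tested genes. The largest changes were in Mdm2, up by 0.94, Pmaip1, a pro-apoptotic gene, up by 0.90, and Sesn2, an inhibitor of mTORC1, up by 0.69 on the log2 scale.

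**Figure D5:**
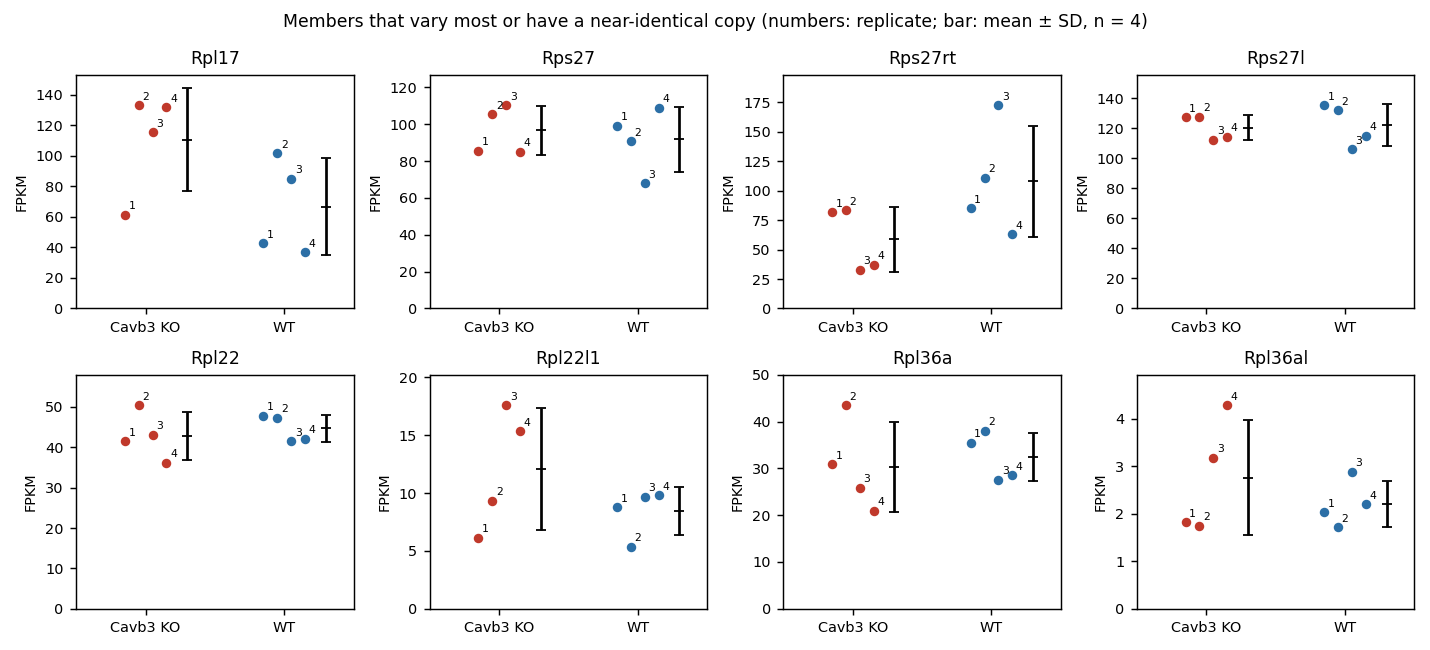
FPKM of 8 members in the Cavb3 KO libraries (red, left) and WT libraries (blue, right), with replicate numbers beside the points and the mean with its SD (bars, n = 4). Rps27 and Rps27rt are at opposite ends in replicate 3, Rpl22l1 and Rpl36al are highest in Cavb3 KO replicates 3 and 4, and Rpl17 is low in replicate 1 of both groups.

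The machinery around the ribosomal proteins was set beside them in the same fits. In Cavb3 KO against WT, 0 genes passed in each of the lists of translation factors, biogenesis factors, RNA polymerase I, chaperones and importers, mTORC1 and mitochondrial ribosomal proteins. The medians ran from -0.01 over 33 mTORC1 genes to 0.08 over 79 ribosome biogenesis factors, beside 0.04 for the members and -0.02 for all tested genes. Among the ribosomal and ribosome-bound proteins outside the symbol rule, Fau had a difference of 0.13 and Rack1 of 0.08.

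Between the sets, the counts for these lists stand beside 19.8% risen and 25.8% fallen among all tested genes, and no difference between lists was tested. Of 76 mitochondrial ribosomal proteins 2 rose and 35 fell (median -0.17), with Mrpl2 down by 0.66, Mrpl54 by 0.64 and Mrps18b by 0.63. Of 14 dedicated chaperones and importers, which carry new ribosomal proteins to the nucleus, 0 rose and 8 fell (median -0.19), with Ipo9 down by 0.43 and Grwd1, the relative of the yeast chaperone of Rpl3, down by 0.40. Of 79 biogenesis factors 21 rose and 15 fell (median 0.04), Rrp12 up by 0.99 among them, and of 15 genes of RNA polymerase I and its factors 4 rose and 1 fell (median -0.06). Of 10 elongation and termination factors 2 rose, Etf1 by 0.67 and Gspt1 by 0.45, and 4 fell, Eef1e1 by 0.42 among them (median -0.14). Of 38 initiation factors 5 rose, Eif5 by 0.68 among them, and 5 fell, Eif2b3 by 0.42 among them. Of 33 mTORC1 genes 7 rose, Ddit4 by 1.00 among them, and 6 fell, Eif4ebp1 by 0.87 among them (median -0.09). Of 23 other mRNAs known to begin with a TOP tract 3 rose, Tpt1 by 0.29 among them. In the same list 4 fell, Nap1l1 by 0.33 and Vim by 0.32 among them. The median of that list was 0.01, against -0.15 for the members. Fau rose by 0.17 (limma adjusted p = 0.0480), while Rack1 (-0.14) did not pass.

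The members were also described by the letters at their starts, with no test. Core subunit genes with a pyrimidine run near the start had a median set difference of -0.13 (27 genes, 2 fallen and 1 risen), those without it -0.17 (29 genes, 7 fallen and 3 risen), and those with no entry -0.16 (20 genes, 4 fallen and 0 risen). The 58 tested ribosomal protein pseudogenes had a median of -0.08, with 4 risen and 7 fallen. Of 15 tested endothelial markers 7 fell and 2 rose, against 25.8% fallen and 19.8% risen among all tested genes, and their summed level was 1864 to 2306 FPKM in replicates 3 and 4 and 2319 to 3032 FPKM in replicates 1 and 2. In Cavb3 KO against WT, 0 of these 15 markers had a positive difference (median -0.27, against -0.02 over all tested genes) and 0 passed. With the replicate set as a term, Esam passed, lower by 0.38 (limma adjusted p = 0.0404). The summed level of 10 pericyte and smooth muscle markers was 4.49 to 7.99 FPKM in replicates 3 and 4 and 10.9 to 31.4 FPKM in replicates 1 and 2. Between the sets, 1 of 2 tested astrocyte markers fell, Gja1 by 1.04 on the log2 scale (limma adjusted p = 0.0259). In the choroid plexus and ependymal list, 1 of 2 tested markers rose, Foxj1 by 2.19 (limma adjusted p = 0.00061). The part of these markers in the members' differences was not tested.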

How the data were processed

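RNA from 4 Cavb3 KO and 4 WT cultures was isolated with a column kit and made into libraries with an NEBNext Ultra kit, per the labels' protocols, and reads were aligned with HISAT2 2.0.5, per the submitters' processing notes. Genotype and replicate number come from the sample titles. The deposited values are FPKM per Ensembl gene in 1 table per library. The counting tool, build, annotation, strand setting and filters were not given in the sources used here. Multiplied by exon lengths of GENCODE M21 (GRCm38), 96.5% to 96.8% of the values above 0 were whole multiples of 1 constant per library within 0.01, which gave the implied depths and recovered reads.

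FPKM is not a count, so limma 3.58.1 in R 4.3.3 with trend and robust moderation was run on log2(FPKM + 1), a scale that understates changes of low genes, for 11864 genes with at least 1 FPKM in at least 4 libraries. P-values were adjusted by Benjamini-Hochberg over all of them, with a threshold of 0.05. The fits were Cavb3 KO against WT, the same with the replicate set as a term, the replicate sets with genotype in the fit, and their interaction. The code was tested on simulated data. P-values rest on the spread between these libraries. Libraries with the same number deviated together, with correlations across genes of 0.41, 0.75, 0.40 and 0.52, over the criterion of 0.1 in every pair. The shift between the replicate sets is part of these values, and libraries with different numbers were not compared. They therefore cannot tell whether the numbers pair the samples. Over the members alone these correlations were 0.42, 0.63, 0.0047 and 0.34. The members, the gene lists and the split into replicate sets were chosen with earlier results of these data known. Named genes were the 5 highest and lowest members, up to 6 called or 4 uncalled members of largest difference in each direction, the paralog pairs, fixed genes with known roles and up to 3 called genes per list. Rpl10l, Rpl3l and Rpl24 were below the filter, and Rps4l was not analysed here. Promoter windows come from RefSeq (GRCm38.p6), coding sequence identity from GENCODE M21 transcripts aligned in Biopython 1.88. The alternatives were a pseudocount of 0.1, no filter or 5 FPKM, quantile normalization, median centring, rescaling without the members, no trend, removal of length or GC trends, limma-voom on recovered reads, the replicate block, no genotype term and leaving out each library. The result of 1 gene outside the symbol rule is not reported here.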

Additional observations from a re-analysis of the deposited data

Results flagged for a closer look

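In 88 groups of 4 libraries examined for a single library far from the other 3, which chance gives in about 1 of 20 groups, 3 libraries stood out. Rpl30, a large subunit gene, was at 47.5 FPKM in Cavb3 KO replicate 2, against 29.7 to 32.5 FPKM in the other Cavb3 KO libraries. Rps27a, the ubiquitin fusion gene, was at 71.7 FPKM in Cavb3 KO replicate 1, against 40.3 to 42.0 FPKM in the other Cavb3 KO libraries. It was also at 48.1 FPKM in WT replicate 1, against 34.5 to 36.2 FPKM in the other WT libraries.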

How the results depend on the processing

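The 0 calls in Cavb3 KO against WT and in the interaction held in every alternative run. With the replicate number as a block, 0 of the 83 members passed (smallest limma adjusted p = 0.170), and no other comparison was run with the block. Whether the numbers pair the libraries was not settled. Between the replicate sets, 3 members rose and 6 fell with no filter on low values, 8 fell with median centring and 28 fell with rescaling without the members. With 1 library left out, 3 to 9 rose and 6 to 21 fell. The median interaction over the members was -0.18 to 0.077 when 1 library was left out. The genotype difference of Rpl36a was -0.32 to 0.023 with 1 library left out, positive only without Cavb3 KO replicate 4, in place of -0.13. The cause of these changes was not tested. Among single genes, 351 values kept their direction and side of the threshold, 26 kept only the direction and 1 turned round. All members tested have 15 or more reads in every library, but 4 libraries a group limit which small differences pass.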
